A study of Mus musculus with 6 samples.

Results

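The collagen genes of the mouse uterus were taken as every gene whose whole symbol is Col, a number, the letter a and a number. This rule chose 44 of the 24077 genes in the single-cell table and the same 44 of the 30828 genes in each spatial table. By family they comprised 11 fibril-forming chains, 9 fibril-associated (FACIT) chains, 6 chains of the basement membrane network, 3 short-chain network collagens, 6 beaded filament chains, 1 anchoring fibril collagen, 4 transmembrane collagens, 2 multiplexins and 2 others. All 44 had at least 1 unique molecular identifier (UMI, 1 captured transcript) in the cells and 43 had one in the sections, where Col9a1 had none. Values are given for the 25 members that reached 50 CPM (the UMIs of a gene scaled to a total of 1e+06) in a cell type or in stromal spots or that passed a test, and the other 19 are given by counts and ranges. In both assays a captured transcript gives 1 UMI whatever its length, but genes can differ in how well they are captured. Col6a1 per Col6a2 was 1.49 in CO stromal cells and 0.650 and 0.555 in the stromal spots of the CO sections. The assays also differed in the mice and the mix of cells, and the part of capture in these ratios was not tested. The order of different genes is therefore a description within 1 assay.

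The uteri came from CD-1 mice, an outbred strain, at 12 months of age. As newborns the mice had received daily injections of corn oil (CO, the vehicle) or of diethylstilbestrol (DES, a synthetic estrogen) at 1 mg/kg. For single cells, uteri were dissociated with trypsin and pooled, those of 2 CO mice into 1 library and those of 4 DES mice into another, with the CO uteri collected in estrus because DES-exposed mice stay in that stage. For spatial transcriptomics, 2 CO sections (CO A and CO B) and 2 DES sections (DES A and DES B), each from a different mouse, were measured on spots that each cover several cells. According to the paper, a pathologist examined the DES tissue for adenocarcinoma, and blocks were cored around chosen areas. It also describes a large fold in CO B and less clear clusters in DES B, and used the A sections for most analyses.

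Collagens are secreted or membrane proteins built of 3 chains wound into a triple helix. Fibril-forming chains (types I, III and V) give connective tissue its tensile strength, FACIT chains decorate those fibrils, type IV chains form the sheet of the basement membrane under epithelium and around vessels and muscle cells, type VI chains form beaded filaments between cells, type VII anchors epithelium to the stroma, and type XVII spans the membrane of basal epithelial cells in hemidesmosomes. In the uterus fibroblasts of the endometrial stroma and smooth muscle cells of the myometrium are the usual sources.

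Several chains lie side by side in the genome. In GRCm38, Col4a1 (chromosome 8, 11198423 to 11312826, minus strand) and Col4a2 (11312805 to 11449287, plus strand) overlap at their 5′ ends and run apart, so the 3′ ends counted by both assays are the far ends of the pair. Col4a3 and Col4a4 are arranged in the same way with 72 bases between them, as are Col4a5 and Col4a6 with 1309 bases. Col6a4, Col6a5 and Col6a6 follow one another on chromosome 9, and Col3a1 and Col5a2 face each other on chromosome 1. The bases upstream of a start site are shown for 3 collagens that were lower in whole DES sections and whose upstream window touches no exon of a neighbour (RefSeq, GRCm38.p6, 250 bases up to the start, plus strand for all 3). They are Col3a1 at chr1:45311288-45311537, Col5a1 at chr2:27886175-27886424 and Col15a1 at chr4:47207762-47208011, with capitals marking a TATA box (TATAAA) or a GC box (GGGCGG) on either strand.
Col3a1: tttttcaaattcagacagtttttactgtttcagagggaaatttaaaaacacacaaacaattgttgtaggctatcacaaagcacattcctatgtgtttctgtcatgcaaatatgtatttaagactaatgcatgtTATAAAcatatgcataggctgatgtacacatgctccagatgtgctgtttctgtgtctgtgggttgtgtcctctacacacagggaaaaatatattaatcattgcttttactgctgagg
Col5a1: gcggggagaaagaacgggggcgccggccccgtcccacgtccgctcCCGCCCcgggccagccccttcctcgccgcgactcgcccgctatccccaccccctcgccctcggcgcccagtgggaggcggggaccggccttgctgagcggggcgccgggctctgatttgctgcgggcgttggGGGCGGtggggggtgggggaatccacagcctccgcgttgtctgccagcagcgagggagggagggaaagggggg
Col15a1: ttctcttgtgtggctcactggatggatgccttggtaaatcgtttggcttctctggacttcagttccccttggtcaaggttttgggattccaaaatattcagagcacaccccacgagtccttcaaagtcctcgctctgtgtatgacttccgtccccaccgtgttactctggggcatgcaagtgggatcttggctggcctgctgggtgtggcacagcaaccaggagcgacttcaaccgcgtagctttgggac
The Col3a1 window held 1 TATAAA, starting at -117 from the transcript start, the Col5a1 window held 2 GC boxes, at -205 and -73, and the Col15a1 window held neither motif. Of 32851 RefSeq windows of this length, 12.4% held TATAAA, 32.7% held GGGCGG and 33.8% held CCAAT, against 5, 22 and 13 of the 38 windows found for 35 collagens. The windows of these genes, which were lower together in DES sections, thus had no motif in common among those searched.

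The files held 32387 CO cells and 16312 DES cells, of which 12253 and 9701 carried a cell type in the deposited annotation. The libraries shared 180 cell barcodes, 32 of them among cells with a type, and their part in any value was not tested. Only 1 DES cell was called stromal and 5 endothelial, while pericytes, myocytes and Ctla2a cells (named for a leading gene) were called in the CO library alone, so DES and CO could be set side by side in mesothelial, epithelial, myeloid and lymphoid cells only. Cells labelled mesothelial carried the defining mesothelial genes (Upk3b 1005 CPM in CO and 900.0 in DES, against 26.8 in CO stromal cells), but the proteoglycan gene Dcn, listed here as a stromal marker, stood at 17675 CPM in CO mesothelial cells and 8859 in CO stromal cells. The stromal receptor gene Pdgfra (265 CPM in CO stromal cells and 3.13 in CO mesothelial cells) and Dpt (265 and 1.88) went the other way. Over all 9 stromal markers the sum was 21202 CPM in CO mesothelial cells and 11463 in CO stromal cells. With 1 library per condition there was no test between CO and DES cells, and every interval below is a 95% exact Poisson or binomial interval that covers counting error only.

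The level of collagen transcripts was highest in stromal cells. They made up 2.85% of all UMIs in the 1326 CO stromal cells, against 0.799% in 75 pericytes, 0.729% in 6866 CO mesothelial cells, 0.653% in 465 Ctla2a cells, 0.363% in 85 myocytes and 0.226% in 341 endothelial cells. Within each library epithelial cells were lowest, with 0.0256% in 2583 CO cells and 0.0106% in 5255 DES cells. Myeloid cells gave 0.212% in CO and, in DES, 0.0217%, or 0.0157% in those the annotation calls Lyz2-high. Lymphocytes, which are not a usual source of fibrillar collagen, gave 0.0976% in CO and 0.0267% in DES, values carried by a part of the cells, since the median cell had 0.0445% and 0.00673%. Their median depth was 4033 and 5599 UMIs, against 23458 and 21900 in epithelial cells. No profile of free RNA was measured, so the lymphocyte level is set beside the epithelial values only as that of a cell type that should lack these genes. The cells under this label differed between the libraries. Plasma cell markers summed to 44556 CPM in CO and 3732 in DES lymphocytes, and myeloid markers to 3815 and 9860. Lymphocyte markers summed to 921 and 706 CPM. The level is thus not that of the same mix of cells in both libraries. By number, mesothelial cells held more collagen UMIs than stromal cells, at 35.8% of those of all CO cells against 19.7%, and the CO library as a whole held 0.479% collagen UMIs against 0.147% in the DES library, which had a single stromal cell.

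**Figure D1:**
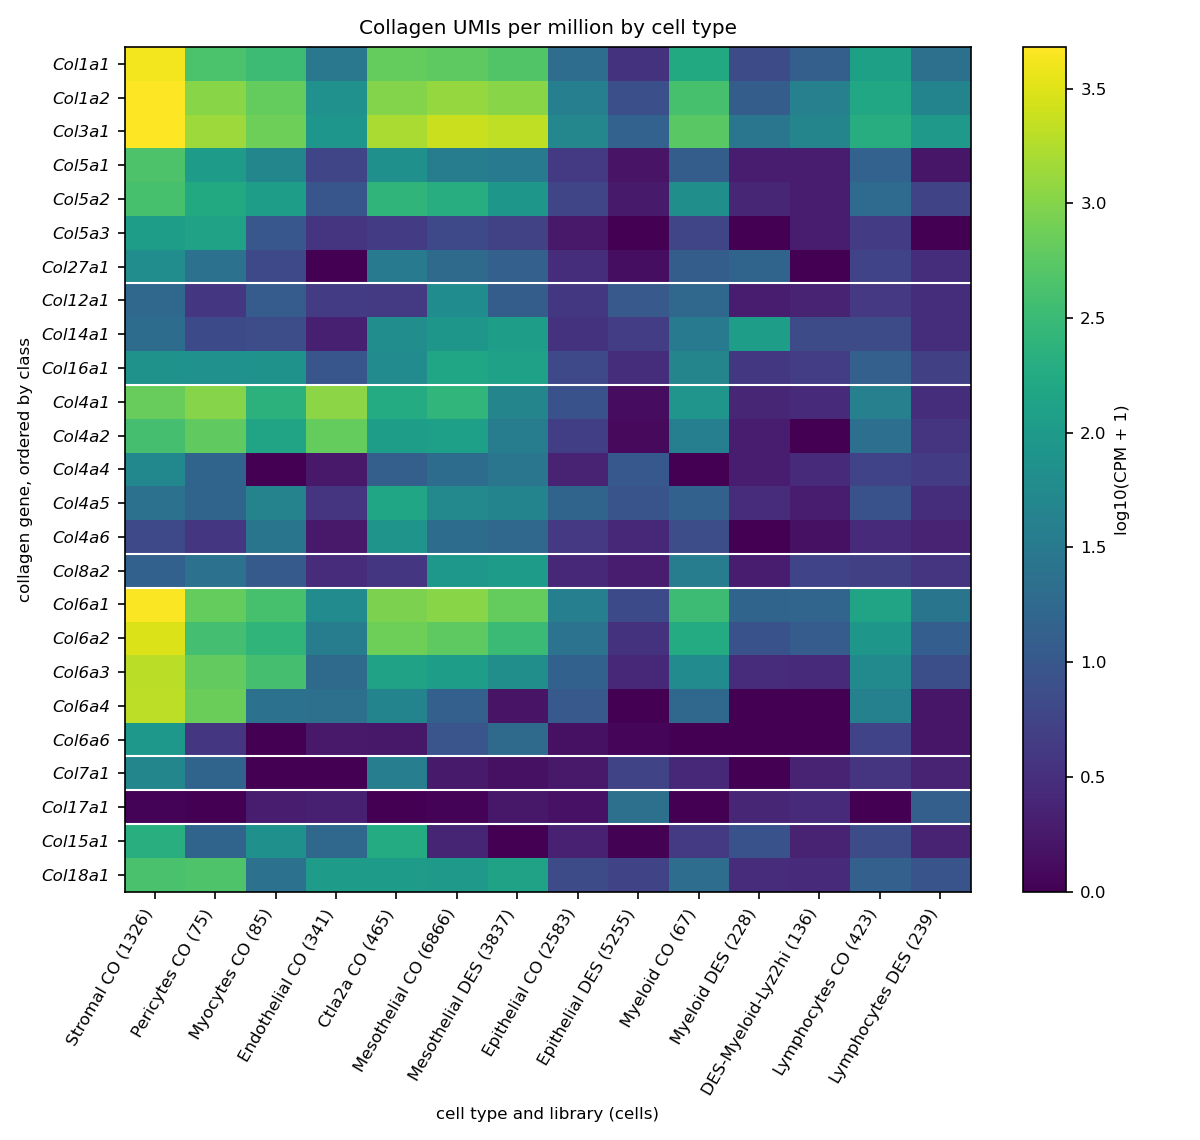
Heat map of 25 collagens (rows, grouped by family between white lines) in 14 combinations of cell type and library of at least 50 cells (columns, number of cells in parentheses), coloured by log10 of CPM plus 1. The stromal column is brightest for types I, III and VI, endothelial cells and pericytes for Col4a1 and Col4a2, and Col17a1 stands out in DES epithelial cells at 21.6 CPM.

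Fibril-forming chains were the largest collagen family in stromal cells. Col3a1 stood at 4799 CPM (95% interval 4759 to 4838), Col1a2 at 4707 and Col1a1 at 4182 in CO stromal cells, and their next highest levels were 2447 CPM for Col3a1 and 1273 for Col1a2 in CO mesothelial cells and 651 for Col1a1 in Ctla2a cells. The type V chains, which nucleate type I fibrils, were lower in stromal cells (Col5a1 451 CPM, Col5a2 400 CPM, Col5a3 112 CPM). Col5a3 differed from the others in that pericytes reached 130 CPM, with an interval (95.5 to 174) that overlapped the stromal one. Col27a1 was at 63.7 CPM in stromal cells. Stromal cells held 1.15 Col3a1 UMIs per Col1a1 UMI and CO mesothelial cells 4.14.

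Type VI chains came next to the fibril-forming family by collagen UMIs in stromal cells. Col6a1 reached 4502 CPM, Col6a2 3020, Col6a4 2077, Col6a3 2025 and Col6a6 91.8 in CO stromal cells, so that beaded filament chains took 41.2% of stromal collagen UMIs beside 51.8% for the fibril-forming family. Col6a4, which encodes a chain that can take the place of Col6a3, was the more restricted of these: it stood at 715 CPM in pericytes but at 12.5 CPM in CO mesothelial cells, below the 40.9 CPM of CO lymphocytes. The DES library, which had 1 stromal cell and lacked pericytes, held 45 Col6a4 UMIs in all, against 49702 in the CO library. Fewer such cells captured and less RNA per cell cannot be told apart for that total.

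Of the 6 type IV chains of basement membranes, Col4a1 and Col4a2 were highest in vessel cells. Col4a1 stood at 1094 CPM (1055 to 1135) in endothelial cells, 1018 (916 to 1129) in pericytes and 667 in stromal cells, and Col4a2 at 654, 599 and 399 CPM. The endothelial and pericyte intervals overlapped for both genes. Type IV made up 77.5% of the collagen UMIs of endothelial cells. The other type IV chains had other leading types: Col4a5 (144 CPM) and Col4a6 (79.2 CPM) were highest in Ctla2a cells, and Col4a3 and Col4a4 (51.1 CPM for Col4a4) in stromal cells. The multiplexins, collagens of basement membrane zones that release antiangiogenic fragments, were shared between types, with Col18a1 at 460 CPM in pericytes and 416 in stromal cells and Col15a1 at 200 CPM in stromal and 182 in Ctla2a cells, in each case with overlapping intervals.

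Among CO cell types with at least 50 cells, mesothelial cells had the highest levels of 3 FACIT collagens and 1 short-chain collagen. Col16a1 (144 CPM), Col8a2 (91.6 CPM), Col14a1 (88.8 CPM) and Col12a1 (61.3 CPM) were each highest there, with intervals apart from the next type. The 22 Stmn1-hi cells, too few for that comparison, held 378 CPM of FACIT collagens against 297 in CO mesothelial cells. In the DES library Col8a2 was at 105 CPM in mesothelial cells, and Col14a1 at 115 in mesothelial and 110 in myeloid cells. In all, 17 members were highest in stromal cells, 14 of them with intervals apart from the next type, 8 in Ctla2a cells, 4 in mesothelial cells, 3 in endothelial cells, 2 in pericytes and 1 in epithelial cells among the CO types, and the other 9 had at most 3 UMIs in their leading type. The leading type of all genes was not counted, so these numbers have no background beside them. Of the 19 members described by ranges, none passed 39.1 CPM in any cell type, and Col22a1 had 128 UMIs in the CO library and 0 in the DES library.

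In mesothelial cells, the compared type with the most collagen, 23 members reached 5 CPM in either library. DES was at least 2-fold higher for 2 of them and at least 2-fold lower for 5, where 2.32% and 2.79% of all genes were as far apart in those directions. The median log2 ratio of the 23 was -0.25, against -0.02 over all genes. Collagen as a whole stood at 0.729% of UMIs in CO and 0.553% in DES mesothelial cells.

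Col4a1, Col4a2, Col5a2, Col12a1 and Col6a4 were the lower members in DES mesothelial cells. Col4a1 stood at 262 CPM in CO and 45.8 in DES (ratio 0.175, 95% interval 0.168 to 0.182) and Col4a2 at 118 and 33.7 CPM (ratio 0.287), so that cells held 2.22 Col4a1 UMIs per Col4a2 UMI in CO and 1.36 in DES. Col4a4, Col4a5 and Col4a6 were within 2-fold. Col4a1 in lymphocytes was 39.2 CPM in CO and 2.01 in DES, which is lower in the same direction. Col12a1 was also more than 2-fold lower, at 61.3 CPM in CO and 11.1 in DES (ratio 0.182), with lymphocytes at 3.11 and 2.01 CPM. Col5a2 was at 193 and 89.3 CPM (ratio 0.463).

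The abundant interstitial chains differed less. Col3a1 was at 2447 CPM in CO and 2115 in DES mesothelial cells (ratio 0.864), Col1a1 at 591 and 481 (ratio 0.814), and the type VI chains Col6a1, Col6a2 and Col6a3 had ratios of 0.615, 0.559 and 0.590. Col18a1 (96.7 and 130 CPM) and Col14a1 (88.8 and 115 CPM) were higher in DES by less than 2-fold. The members at least 2-fold higher in DES were Col6a6, at 8.27 and 17.8 CPM (ratio 2.16), and Col6a5, at 6.01 CPM in DES (ratio 3.99), both at low levels. Col6a4, at 12.5 and 0.588 CPM, was under the lymphocyte level of its own library in CO.

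**Figure D2:**
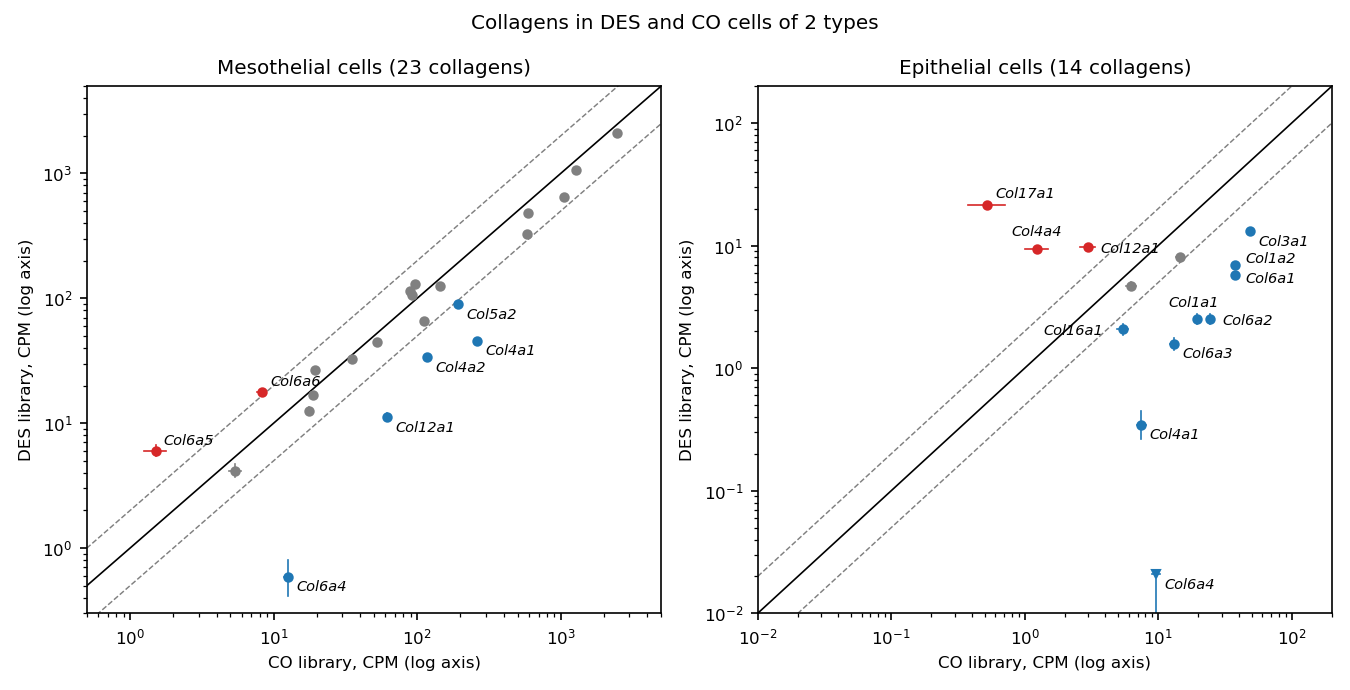
DES against CO level of collagens with at least 5 CPM in either library, in mesothelial cells (left, 23 genes) and epithelial cells (right, 14 genes), on log axes with 95% exact Poisson intervals; the solid line marks equal levels, dashed lines a 2-fold difference, red and blue genes beyond it, and the triangle the upper limit of a gene with 0 UMIs in DES. Col4a1, Col4a2 and Col12a1 lie below the lines in mesothelial cells, while Col17a1, Col4a4 and Col12a1 lie above them in epithelial cells.

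In epithelial cells 14 members reached 5 CPM in either library. DES was at least 2-fold higher for 3 of them and at least 2-fold lower for 9, where 9.16% and 7.57% of all genes were as far apart. The 9 lower members, Col1a1, Col1a2, Col3a1, Col4a1, Col6a1, Col6a2, Col6a3, Col6a4 and Col16a1, were each below the lymphocyte level of the same library in both conditions. By median cell the collagen share of DES lymphocytes (0.00673%) was close to that of DES epithelial cells (0.00692%), while in CO the 2 medians were 0.0445% and 0.0208%. At median depths of 5599 and 21900 UMIs the DES medians rest on very few collagen UMIs a cell. The part of free RNA in these values was not tested. Col1a1, for instance, stood at 19.5 CPM in CO epithelial cells beside 124 in CO lymphocytes, and at 2.51 in DES epithelial cells beside 22.2 in DES lymphocytes.

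The 3 higher members stood above the DES lymphocyte level in DES epithelial cells. Col17a1, the hemidesmosomal collagen, was at 0.520 CPM in CO and 21.6 in DES epithelial cells (ratio 41.5), with 12.1 CPM in DES lymphocytes. Col4a4 was at 1.23 and 9.38 CPM (ratio 7.62) with 3.36 in DES lymphocytes, and Col12a1 at 2.96 and 9.78 CPM (ratio 3.31) with 2.01. Col12a1 therefore was higher in DES epithelial cells and lower in DES mesothelial cells.

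Most of the Col17a1 came from the basal cells, taken as those with over 1 UMI of both Krt14 and Trp63 (483 of 5255 DES epithelial cells). This count rule is the paper's, was applied to the DES library only, and is not a label of the annotation. The paper reports basal cells in its DES sample and none in CO. Basal cells held 312 CPM of Col17a1, and the 4772 other DES epithelial cells held 4.31, under the DES lymphocyte level. Col7a1, the anchoring fibril collagen, was at 64.5 CPM in basal and 1.12 in the other DES epithelial cells, and Col18a1 at 42.3 and 2.45 CPM. Col12a1 was at 33.0 and 8.40 CPM and Col4a5 at 23.3 and 7.13 CPM. Col4a4 did not share this pattern, with 10.5 CPM in basal and 9.32 in the other cells, and its ratio to CO without basal cells was 7.57. The same ratio was 8.29 for Col17a1, 2.84 for Col12a1, 1.38 for Col7a1, 0.493 for Col4a5 and 0.394 for Col18a1. For Col17a1 the 4.31 CPM of these other cells lay above each of the paper's 16 DES epithelial clusters, made after basal cells were removed. Those clusters ranged from 0.722 to 4.27 CPM with a median of 1.68, beside a median of 0.401 over the 15 CO clusters. The ratio of 8.29 is therefore not that of a typical cluster.

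Immune cells also had lower collagen levels in the DES library. Among lymphocytes 15 of 17 members were at least 2-fold lower in DES (6.86% of all genes) and 1 was higher (7.77%), and among myeloid cells 17 of 20 were lower (25.1%) and 2 were higher (5.46%). Col14a1 went the other way in myeloid cells, at 32.5 CPM in CO and 110 in DES, with DES lymphocytes at 2.01 CPM. The 67 CO myeloid cells were uneven, with a median cell at 0.0438% collagen UMIs and the 90th percentile at 0.368%, so a part of the cells carried the CO values.

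In the tissue sections, spots of the stromal cluster numbered 101 of 1433 and 188 of 1834 in the CO sections and 211 of 1575 and 132 of 1357 in the DES sections, with 558480, 922552, 1015381 and 346412 UMIs in all. Collagens made up 2.06% and 1.66% of the UMIs of these spots in the CO sections (A, then B, here and below) and 2.06% and 1.38% in the DES sections. Outside them the shares were 0.852%, 0.975%, 0.593% and 0.449%. CO and DES sections thus overlapped in stromal spots, while both DES sections lay below both CO sections in the other spots. In a spot, fewer cells of a type and less RNA per cell cannot be told apart. The clusters were formed on these counts, so the excess of stromal over other spots is given without a test: 12 of 30 members in CO and 17 of 27 in DES were at least 2-fold higher in stromal spots in both sections, beside 5.54% and 5.20% of all genes, and 0 members were as far below in either (2.91% and 3.67%).

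Stromal spots also differed in what else they held. Stromal markers summed to 5017 and 4392 CPM in CO and 3481 and 2561 in DES, and all 9 were detected in each section. Every section had another cluster, counted among the other spots, with a higher stromal marker sum. The highest sums were 5407 CPM (129 spots) and 6822 (222) for CO, and 5845 (9) and 8239 (47) for DES. Collagens made up 1.75%, 1.66%, 0.977% and 1.69% of the UMIs of these clusters. By these markers the other spots thus included stroma-rich spots. The part of such spots in the comparisons of stromal with other spots was not tested separately. Smooth muscle markers (6 genes) summed to 963, 762, 3170 and 9544 CPM, basal epithelial markers (4 genes, all at 0 in CO A) to 0, 135, 7719 and 2387 CPM, and plasma cell markers (4 genes) to 14.3, 3705, 9489 and 34341 CPM. Their part in the results below was not tested. With 2 sections a condition an exact test over sections cannot fall below p = 0.333, and all adjusted p-values come from edgeR's quasi-likelihood test over all genes with Benjamini-Hochberg adjustment.

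In stromal spots 25 members were tested, 3 fell in DES (0.673% of all genes tested did) and 1 rose (0.796%). Those that fell were 2 of the 5 type IV chains tested and 1 of the 2 multiplexins tested. Col4a1 stood at 1135 and 1214 CPM in CO and at 293 and 309 in DES. The groups were far apart, and the difference was -2.01 ± 0.31 on the log2 scale (SE, adjusted p = 0.034). Col4a2, its partner in the heterotrimer, was at 800.4, 791, 251 and 211 CPM and fell by 1.83 ± 0.30 (adjusted p = 0.034). Col18a1 was at 788, 1118, 296 and 254 CPM and fell by 1.84 ± 0.33 (adjusted p = 0.038). The other type IV chains overlapped between conditions, with Col4a4 at -0.76 ± 0.58, Col4a5 at -0.78 ± 0.63 and Col4a6 at -0.03 ± 0.65 (adjusted p from 0.66 to 0.99). The other multiplexin, Col15a1, was at 0.20 ± 0.31 (adjusted p = 0.87). Vessel cells had the highest Col4a1 levels among the single cells. In the stromal spots the 4 pericyte markers summed to 689, 806, 266 and 361 CPM, while the 5 endothelial markers summed to 218, 324, 84.7 and 245 CPM, a range that overlapped between conditions. Their part in the type IV result was not tested. The type IV share of collagen UMIs in stromal spots was 9.68% and 12.7% in CO against 2.88% and 4.32% in DES. With stromal spots taken by a marker score in place of the cluster, 1 of the 3 passed, Col4a1 at -1.77 (adjusted p = 0.048), while Col4a2 was at -1.78 (adjusted p = 0.0501) and Col18a1 missed at an adjusted p of 0.092. Without DES A or without DES B none of the 3 passed (0 lower), although the differences were similar, from -2.14 to -1.80 over the 3 genes, and without CO B 2 did, with Col18a1 at -1.55 (adjusted p = 0.077). Over all genes, 2 of 8695 and 27 of 10361 were lower without DES A and without DES B, against 60 of 8914 with all sections. In such fits, here and in the other comparisons, the lone section of a condition was assumed to vary like the sections of the other condition.

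Col17a1 rose in stromal spots. It had 0 UMIs in the first CO section and 5 UMIs (5.42 CPM) in the second, against 165 and 52.0 CPM in DES, a difference of 4.96 ± 0.79 (adjusted p = 0.034). With so few CO counts its size was uncertain, and over 10 alternative fits it ranged from 3.97 to 9.20. The basal epithelial markers Krt14 and Krt5 passed the same test in the same spots, at 6.51 and 6.44 on the log2 scale. Without DES A Col17a1 did not pass, and 0 members were then higher, beside 38 of 8695 genes. Without CO A 2 members were higher, beside 158 of 10410 genes, against 71 of 8914 with all sections.

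The fibril-forming and type VI chains of stromal spots did not pass. Col1a1 was at 1565 and 1606 CPM in CO and 2941 and 1764 in DES, and Col1a2 at 2210, 2327, 4190 and 2413, with both DES values above both CO values by log2 differences of 0.51 ± 0.33 and 0.48 ± 0.34 (adjusted p = 0.60 and 0.64). Col3a1 ran the other way, at 2296, 3059, 1798 and 1709 CPM (-0.66 ± 0.32, adjusted p = 0.44). As a result the ratio of Col3a1 to Col1a1 UMIs was 1.47 and 1.90 in CO against 0.612 and 0.969 in DES, while Col1a1 per Col1a2, the chains of 1 heterotrimer, stayed between 0.690 and 0.731 in all 4 sections.

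Col6a3 spread more between the CO sections (1733 and 469 CPM) than between conditions (1194 and 808 in DES), and so did Col6a4 (2611 and 1512 in CO, 2450 and 1865 in DES) and Col6a1 (2387 and 972 in CO, 1779 and 1146 in DES). Col12a1 (3.58, 26.0, 204 and 43.3 CPM) and Col8a2 (14.3, 5.42, 76.8 and 20.2 CPM) had the next largest differences, 2.89 ± 0.79 and 2.44 ± 0.66, at an adjusted p of 0.13 each, with DES A highest for both. Col12a1 passed in 2 of 10 alternative fits and Col8a2 in 3, both of them with no filter beyond 1 count and with the section letter as a block. The median over the 25 members tested was -0.10, beside 0.00 over all genes.

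**Figure D3:**
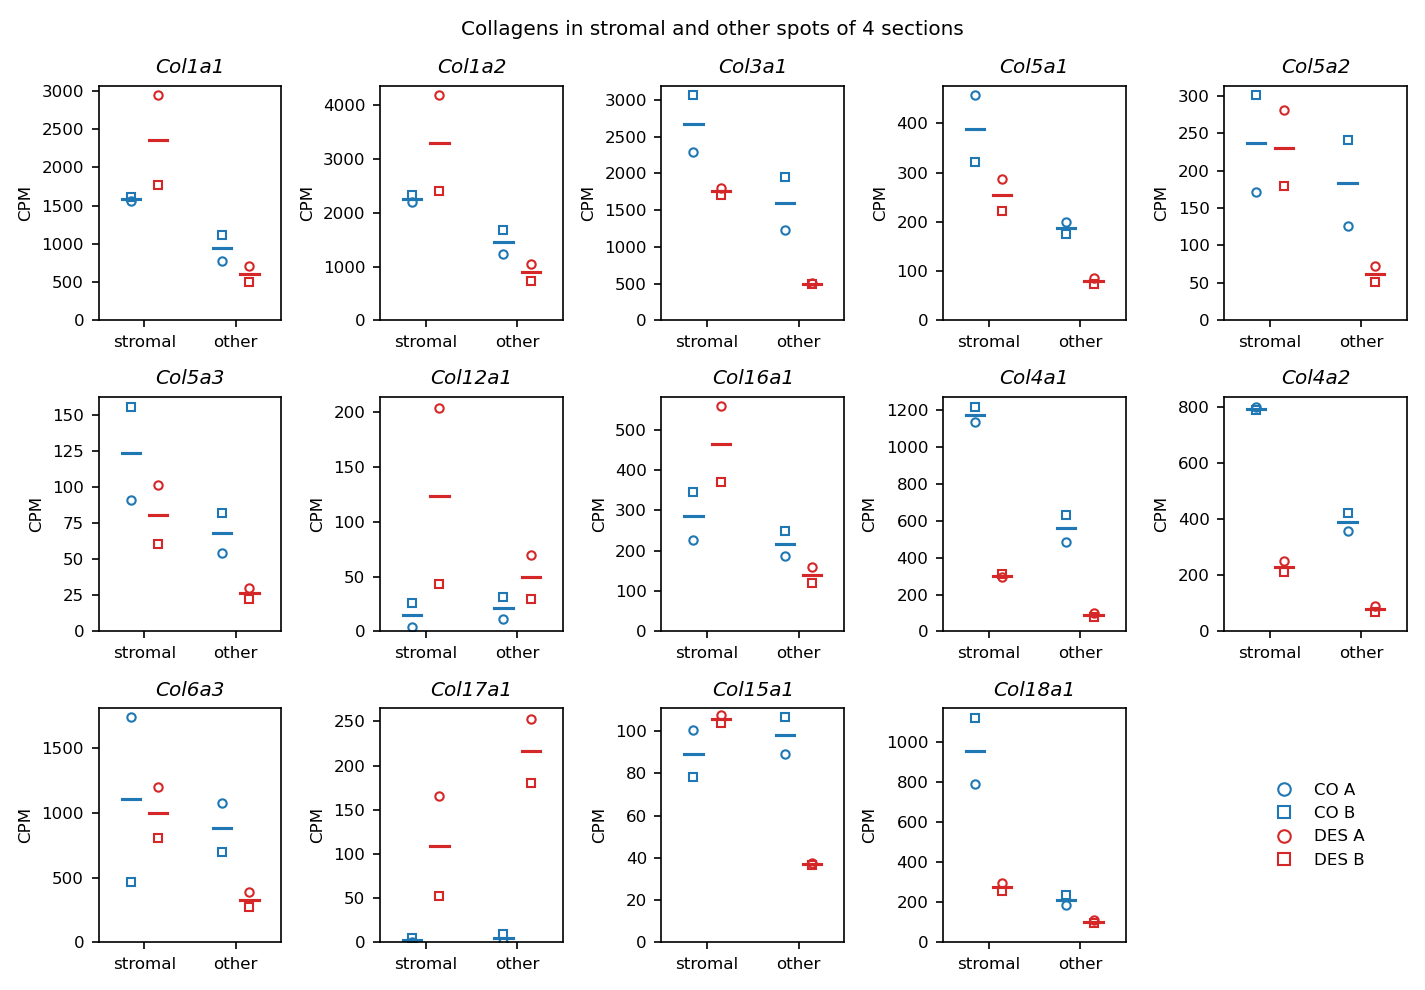
CPM of the 14 collagens that passed a test, in stromal and other spots, 1 point a section (CO blue, DES red, circles A and squares B) with bars at the mean of the 2 sections; each panel has its own axis from 0. Col4a1, Col4a2 and Col18a1 lie lower in DES in both kinds of spot, while Col1a1, Col1a2 and Col16a1 lie higher in DES stromal spots and lower in DES other spots.

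Outside the stromal cluster more members fell. Of 37 tested, 8 fell (3.41% of all genes tested) and 0 rose (3.25%; 5 members had an unadjusted p under 0.05 in that direction). At that unadjusted level in edgeR 18 members were lower, and 3555 of all 13921 genes passed in either direction. DESeq2 called 13 lower and 2 higher, beside 1029 and 853 of all genes. Of 6 type IV chains 2 fell, further than the other 6 members: Col4a1 was at 483, 633, 100.3 and 76.0 CPM (-2.88 ± 0.23, adjusted p = 0.015) and Col4a2 at 359, 422, 89.98 and 67.6 CPM (-2.53 ± 0.21, adjusted p = 0.015). Both DES sections lay several-fold under both CO sections. The other type IV chains did not pass, with Col4a3 at 0.28 ± 0.43, Col4a4 at -0.13 ± 0.30, Col4a5 at -0.73 ± 0.32 and Col4a6 at -0.56 ± 0.45. Col3a1, the reticular fibre collagen, stood at 1235, 1956, 511 and 490 CPM and fell by 1.89 ± 0.26 (adjusted p = 0.027). Of 3 type V chains 2 fell, Col5a1 (199.96, 175, 85.5 and 73.9 CPM) by 1.46 ± 0.18 and Col5a3 (54.6, 82.5, 30.5 and 22.7 CPM) by 1.59 ± 0.26, with adjusted p of 0.022 and 0.037. Col5a2 (126, 240.05, 72.2 and 50.7 CPM) had a difference of -1.79 ± 0.36 and missed the threshold at an adjusted p of 0.054. The remaining 3 were Col6a3 (1072, 697, 386 and 275 CPM, -1.65 ± 0.30, adjusted p = 0.047), Col15a1 (89.3, 107, 37.4 and 36.4 CPM, -1.62 ± 0.17, adjusted p = 0.018) and Col18a1 (185, 234, 112 and 95.7 CPM, -1.23 ± 0.19, adjusted p = 0.032). Of 11 alternative fits, Col6a3 passed in 7, Col5a3 and Col18a1 in 8 each, and the other members that fell in 9 or 10. The number that fell was 1 without DES A, 0 without DES B and 16 without CO A, and 2 members rose without either CO section. These counts moved with those over all genes, where 475 fell with all sections, 32 without DES A, 25 without DES B and 1855 without CO A, and 453 rose with all sections, 1662 without CO A and 1481 without CO B.

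Col1a1 and Col1a2 had lower DES values in these spots without passing (-0.86 ± 0.27 and -0.93 ± 0.25, adjusted p = 0.13 and 0.10). The other type VI chains did not pass either. Col6a1 was at -0.70 ± 0.25, Col6a2 at -0.66 ± 0.23, Col6a4 at -0.25 ± 0.21 and Col6a6 at -0.13 ± 0.29, while the scarce Col6a5, with 3.01 and 2.67 CPM in CO and 0.741 and 1.15 in DES, was at -1.78 ± 0.47 (adjusted p = 0.094). The median over the 37 members was -0.73, against 0.00 over all genes. The 6 smooth muscle markers summed to 15403 and 17575 CPM in CO other spots and 3611 and 3836 in DES, and all 6 fell in the same test. The 9 stromal markers summed to 2032 and 2582 against 1011 and 840 CPM. The vessel markers were lower in both DES sections as well, with endothelial markers at 76.5 and 112 in CO against 55.9 and 64.0 in DES and pericyte markers at 176 and 246 against 153 and 134. Other markers were higher in DES there, with basal epithelial markers at 4.27 and 224 against 10657 and 6636 CPM, myeloid markers at 428 and 583 against 2209 and 1452, and plasma cell markers at 177 and 557 against 2996 and 5281. The part of any of them in the collagen result was not tested.

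Members were also read within the muscle-rich cluster of each section. Smooth muscle markers summed to 50865 and 58678 CPM there in CO and to 34361 and 31744 in DES, so the conditions were not matched. There Col4a1 was at 1137 and 1096 CPM in CO and 283 and 256 in DES, Col3a1 at 2237 and 3226 against 680 and 710, Col1a1 at 1751 and 1962 against 557 and 776, and Col6a3 at 1871 and 1366 against 667 and 442. Of the other members that fell in other spots, Col4a2 was at 878 and 823 CPM in CO and 323 and 273 in DES, Col5a1 at 387 and 331 against 136 and 118, Col5a3 at 92.3 and 173 against 42.9 and 50.4, and Col15a1 at 186 and 243 against 125 and 88.7. Col18a1 overlapped between conditions there, with 122 and 106 CPM in CO and 129 and 66.1 in DES. In the epithelium-rich cluster Col17a1 stood at 1.07 and 9.63 CPM in CO and 168 and 266 in DES. Basal epithelial markers summed there to 5.76 and 148 CPM in CO and 5965 and 10184 in DES, so the conditions were not matched there either. These clusters were chosen by their marker level after the levels were known, and carry no test. Another CO A cluster, of 208 spots, had nearly the muscle marker level of the chosen one (49917 CPM). It held less collagen, with Col4a1 at 730, Col3a1 at 1635, Col1a1 at 1019 and Col6a3 at 1631 CPM. These levels were still above those of both DES muscle-rich clusters.

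Over whole sections, 38 members were tested, 5 fell (2.63% of all genes tested) and 0 rose (2.67%; 3 members at an unadjusted p under 0.05 in that direction). At that unadjusted level in edgeR 14 members were lower, and 3438 of all 14098 genes passed in either direction. DESeq2 called 10 lower and 1 higher, beside 969 and 822 of all genes. Those that fell were Col4a1 (512, 682, 122 and 84.2 CPM, adjusted p = 0.021), Col4a2 (379, 453, 108 and 72.6 CPM), Col3a1 (1282, 2048, 654 and 532 CPM), Col5a1 (211, 187, 108 and 79.1 CPM) and Col15a1 (89.8, 104, 45.2 and 38.8 CPM). With library totals, with no filter beyond 1 count or with the section letter as a block, 3 of the 5 passed, and Col3a1 and Col5a1 did not. Col17a1 had the largest difference, at 0.560, 9.61, 243 and 176 CPM (5.18 ± 1.13), and missed the threshold at an adjusted p of 0.072. The CO sections were spread over a wide range for this gene. One CO B cluster of 17 spots, singled out after its values were seen, carried basal markers at 7592 CPM and Col17a1 at 259 CPM. The number that fell was 0 without DES A or DES B and 12 without CO A, and the number that rose was 1 without CO A and 2 without CO B. Over all genes 371 fell with all sections, 0 without DES A or DES B and 1508 without CO A, and 376 rose with all sections, 1311 without CO A and 1148 without CO B. Col7a1, with 46.1, 124, 255 and 171 CPM, was higher in both DES sections and did not pass (1.12 ± 0.49, adjusted p = 0.25).

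**Figure D4:**
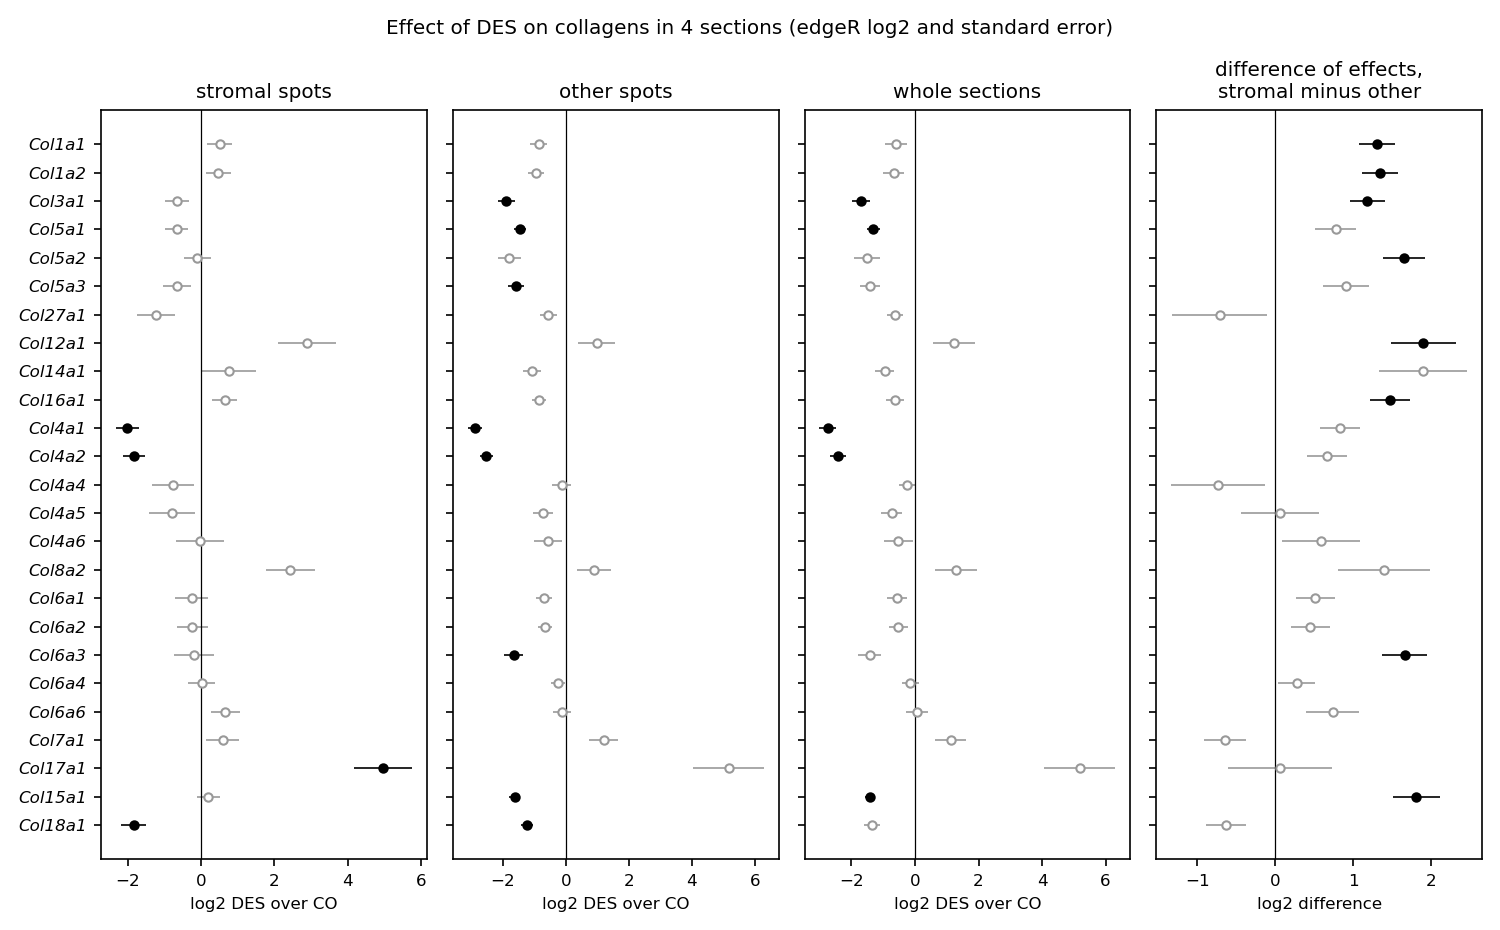
Log2 difference between DES and CO with its standard error for 25 collagens (rows, by family) in stromal spots, other spots and whole sections, and on the right the difference between the stromal and the other effect; black points passed an adjusted p of 0.05 in edgeR and open grey points did not. Col4a1 and Col4a2 are black and at or below -1.83 in the first 3 panels, and the 8 black points on the right lie between 1.18 and 1.90.

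The effect of DES itself differed between stromal and other spots for 8 of 37 members, all with a higher effect in stromal spots (2.58% of all genes tested), and for 0 in the other direction (0.783%; 2 at an unadjusted p under 0.05). At that unadjusted level in edgeR 15 members had a higher effect in stromal spots, and 1636 of all 13542 genes passed in either direction. As above, the clusters were formed on these counts, and the test took them as given. Its adjusted p-values do not cover that choice, whose part in the result was not tested. With stromal spots taken by marker score the number was 16 of 36, beside 309 of 13609 genes. The 4 fibril-forming members among them were Col1a1 (difference of effects 1.30 ± 0.24), Col1a2 (1.34 ± 0.23), Col3a1 (1.18 ± 0.23) and Col5a2 (1.65 ± 0.27). The FACIT members were Col12a1 (1.90 ± 0.42) and Col16a1 (1.47 ± 0.26), and Col6a3 (1.66 ± 0.29) and Col15a1 (1.81 ± 0.30) completed the group. Adjusted p ranged from 0.00011 for Col5a2 to 0.0048 for Col12a1. Col5a2 shows the pattern in its values: in stromal spots it stood at 172 and 300.3 CPM in CO and 281 and 179 in DES, and in other spots at 126 and 240.1 in CO and 72.2 and 50.7 in DES. Col15a1 was level in stromal spots (100.3, 78.0, 107 and 104 CPM) and separated in other spots. Col16a1 was higher in DES stromal spots (226, 345, 559 and 370 CPM) and lower in DES other spots (186, 249, 161 and 121 CPM). Neither of these 2 effects passed by itself in edgeR (adjusted p = 0.48 and 0.094).

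The type IV chains were not among these 8, with differences of 0.82 ± 0.26 for Col4a1 and 0.66 ± 0.26 for Col4a2 (adjusted p = 0.079 and 0.22), and neither was Col18a1 (-0.63 ± 0.25, adjusted p = 0.23). Col17a1 differed by 0.06 ± 0.67. The smooth muscle markers, which fell in other spots, were higher in DES stromal spots, and all 6 passed the same test in the direction of the 8 collagens. Whether they bear on the result was not tested.

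**Figure D5:**
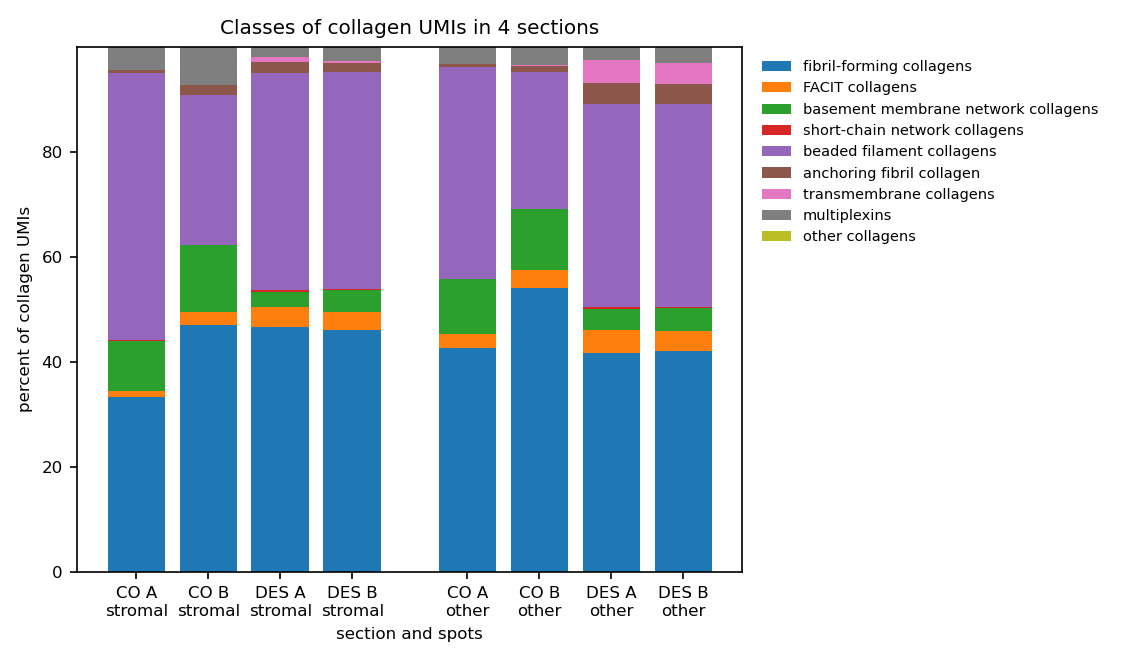
Share of collagen UMIs taken by each collagen family in stromal (left 4 bars) and other spots (right 4 bars) of each section. The basement membrane share is 9.68% and 12.7% in CO and 2.88% and 4.32% in DES stromal spots, and transmembrane collagens take 4.37% and 4.12% of other spots in DES against 0.0304% and 0.127% in CO.

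By family, the basement membrane share of collagen UMIs was lower in both DES sections in both kinds of spot, at 10.4% and 11.7% in CO and 4.11% and 4.31% in DES other spots. Multiplexins were lower as well, at 4.31% and 7.19% against 1.96% and 2.60% in stromal spots, while transmembrane, FACIT and short-chain collagens took larger shares in both DES sections in both kinds of spot. The FACIT share of stromal spots was 1.16% and 2.56% in CO and 3.85% and 3.27% in DES. Beaded filament chains took 50.9% and 28.6% of collagen UMIs in CO stromal spots and 41.3% in each DES section, and fibril-forming chains 33.2% and 47.0% against 46.6% and 46.2%. For the beaded filament and fibril-forming families CO A and CO B differed more than the conditions did. The 19 members described by ranges stayed at or under 14.1 CPM in stromal spots and 13.0 CPM in whole sections.

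The enzymes, processing factors and receptors that collagens depend on were read from the same tests. Of 18 collagen-modifying enzymes and chaperones, 17 were tested in stromal spots, and none of these, of 9 processing and cross-linking genes or of 7 receptors rose or fell there (0.796% and 0.673% of all genes did). In whole sections 1 of 18, 1 of 10 and 1 of 9 fell, Plod1 (lysyl hydroxylase, -1.61), Loxl1 (a cross-linking oxidase, -1.37) and Itga1 (the collagen-binding integrin chain, -1.90), and none rose, where 2.63% of all genes fell. In other spots, where 3.41% of all genes fell, the same 3 fell by 1.71, 1.54 and 2.06, together with Adamts2 (the procollagen N-proteinase) by 1.83. The effect of DES was higher in stromal than in other spots for 5 of 18 modifying genes (P4ha3 2.26, Plod2 1.77, P3h1 1.56, Fkbp10 1.19 and the collagen chaperone Serpinh1 1.02), 3 of 9 processing genes (Adamts2 1.64, Loxl1 1.42 and Pcolce 1.25) and 1 of 9 receptors (Itga1 1.85), and lower for none, where 2.58% of all genes had a higher effect in stromal spots. Serpinh1 stood at 564, 428, 835 and 624 CPM in stromal spots and 348, 352, 321 and 244 in other spots. The most abundant genes of each list besides it were Ppib (439, 426, 588 and 546 CPM in whole sections) and P4hb (480, 468, 530 and 464), Pcolce, Bmp1 and Lox (52.6 to 149 CPM), and Itgb1, Ddr1 and Mrc2 (39.6 to 319 CPM).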

How the data were processed

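Collagen levels were read from UMI counts of 2 single-cell libraries and 4 Visium sections. The authors made the deposited counts with Cell Ranger 3.0.1 (cells) and Space Ranger 1.2.2 (sections) against mm10 after bcl2fastq 2.20.0.422, and the counts are whole numbers, not normalized. A fraction (sequencing saturation) deposited per cell by the authors was not used, and 350 cells listed in the annotation without counts were left out. Cell types and spot clusters are the authors' own. The authors screened for swapped barcodes with DropletUtils and took out likely doublets with scran. No further doublet caller was run here, and whether the cells without a type include those doublets is not given in the sources used here. In this work UMIs were summed per cell type and library or per section and region and given as CPM with 95% Poisson intervals. A cell type needed 50 cells, a ratio needed 5 CPM in either library, and 2-fold was called.

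Sums per section were tested with edgeR 4.0.16 in R 4.3.3 (TMM, filterByExpr, quasi-likelihood test, adjusted p below 0.05 over all genes). DES was compared with CO in stromal, other and whole sections, and the difference of effects was fitted with the section as a block. Whole sections held 9117099 to 12506177 UMIs. Alternatives were DESeq2 1.42.0, other scalings, no filter, stromal spots by marker score (the top 15%), the section letter as a block, and each section left out. P-values measure the spread between these sections. The fit was tested on simulated data before use. The members, the gene lists and the rule for members given with values (50 CPM in stromal spots or a cell type, or a passed test) were chosen with earlier results of these data known. 0 columns of per-sample values were unmapped.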

Additional observations from a re-analysis of the deposited data

Results flagged for a closer look

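The effect of DES differed between stromal and other spots, by a test of the difference itself, for Col1a1 (1.30 on the log2 scale), Col1a2 (1.34), Col3a1 (1.18), Col5a2 (1.65), Col6a3 (1.66), Col12a1 (1.90), Col15a1 (1.81) and Col16a1 (1.47). The spot clusters were formed on these counts, and this edgeR test took them as given. For Col14a1, a FACIT collagen, both DES sections were higher in stromal spots (0.76) and lower in other spots (-1.07) than both CO sections. Its stromal levels were 1.79 and 21.7 CPM in CO and 23.6 and 23.1 in DES, from 1, 20, 24 and 8 UMIs. CO B was thus close to both DES sections there. Neither effect passed in edgeR (adjusted p = 0.76 and 0.10), and the difference of the effects missed the threshold in the same edgeR test (adjusted p = 0.059).

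Col12a1 had a DES over CO ratio of 3.31 in epithelial cells and of 0.182 in mesothelial cells. With 1 library a condition this difference was not tested.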

How the results depend on the processing

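The 25 calls of members kept their direction in all 250 alternative fits of them and passed in 203. In stromal spots the number of members higher in DES was 3 with no filter beyond 1 count and 0 to 2 on leaving out 1 section, and the number lower was 1 (Col4a1) with stromal spots taken by marker score and 0 to 3 on leaving out 1 section. In whole sections the number higher was 1 by DESeq2 and 1 without the basal-rich spots of CO B, and 0 to 2 on leaving out 1 section. The number lower was 10 by DESeq2, 3 with library totals, 3 with no filter and 0 to 12 on leaving out 1 section. In other spots the number higher was 2 by DESeq2, 1 with library totals, 1 without the basal-rich spots and 0 to 2 on leaving out 1 section, and the number lower was 13 by DESeq2 and 0 to 16 on leaving out 1 section. The number of members with a higher effect in stromal spots was 16 by marker score (309 of 13609 genes) and 7 by DESeq2 (178 of 13542 genes), where the main test called 350 of 13542 genes. The basal-rich spots were chosen after seeing the data and are high in Col17a1, the member gained without them, so their removal is no test of it. The lowest counts of members lower in DES came on leaving out DES A or DES B. Over all genes, calls in whole sections numbered 376 higher and 371 lower in the main test and 822 and 969 by DESeq2. With library totals they were 522 and 263, and the median of all genes moved by 0.20 (0.21 in other spots). In stromal spots with no filter beyond 1 count, 334 of 14822 genes were higher, against 71 of 8914 in the main test. By marker score 28 of 9615 genes were lower there. In whole sections 243 of 18465 genes were lower with no filter, and 428 of 14078 were higher without the basal-rich spots. In other spots 694 of 13921 genes were higher with library totals, and 499 of 13912 without the basal-rich spots.

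Section letters are shared between conditions but name different mice, and deviations of same-lettered sections correlated at 0.090, -0.025 and -0.009 in stromal spots, whole sections and other spots, so they were not read as a pairing. With the letter as a block, 3 members were higher in stromal spots, 3 were lower in whole sections and 1 was higher in other spots. Over all genes 253 of 8914, 229 of 14098 and 553 of 13921 were called in these fits and directions. The main test called 71, 371 and 453.

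Among single cells, 14 members were at least 2-fold lower in DES epithelial cells with a floor of 1 CPM, against 9 with the main floor of 5 CPM. The share of all genes was not counted at the lower floor, so the 14 have no background beside them. The collagen share of UMIs moved by more than counting error when averaged over cells (2.77% in CO stromal, 0.680% and 0.550% in CO and DES mesothelial, 0.0261% and 0.0150% in CO and DES epithelial cells), without the 20 most abundant genes (3.40%, 0.853%, 0.649%, 0.0305% and 0.0130% in the same order) and with cells thinned to 3000 UMIs (2.76%, 0.684%, 0.549%, 0.0247% and 0.0146%). The order of these 5 groups was the same under each. The cause of these changes was not tested. With 2 sections a condition, 1 library a condition for cells and only 1 DES stromal cell, a missed threshold does not show that levels were alike.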

Other observations

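Among clusters of epithelial cells, Col14a1 was uneven in both libraries. It stood at 31.1 CPM (95% interval 23.4 to 40.5) in CO cluster 12 (71 cells) and 51.6 CPM (42.9 to 61.4) in DES cluster 14 (67 cells), against medians of 1.81 CPM over the 15 CO clusters and 2.30 CPM over the 16 DES clusters. The clusters were formed on these cells, and no test was made.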
